A study of Mus musculus with 24 samples.

Results

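The genes described here are 5 integrin subunits, Itga8, Itgav, Itgb1, Itgb3 and Itgb5, and 5 matrix proteins that integrins bind, Edil3, Npnt, Fn1, Tnc and Postn. They are 10 of the 19937 genes measured, and each was read from the probe set that carries its symbol alone. For each of the 10 genes the array had 1 such probe set. RNA of both hindlimb buds of single E10.5 mouse embryos was hybridised to Affymetrix Mouse Gene 1.0 ST arrays, on which probes lie along the whole transcript. The samples were 12 Nipbl+/- embryos, heterozygous for a mutation of Nipbl, the protein that loads cohesin onto chromosomes, and 12 wild type embryos of the same stage. All values are log2 intensities as the authors normalized them, and all differences are Nipbl+/- minus wild type. Edil3 and Itga8 were chosen by their measured difference between these genotypes on these arrays, so that difference is described without a test. The other 8 genes were added as their partners, with the results of the comparison known.

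Integrins are receptors made of an alpha and a beta subunit that span the cell membrane, bind the extracellular matrix outside and couple to actin inside. Itga8 pairs with Itgb1 alone, whereas Itgav can pair with Itgb1, Itgb3 or Itgb5. These receptors share the ability to recognise the short arginine-glycine-aspartate motif that Edil3, Npnt, Fn1 and Tnc carry, and Postn binds Itgav receptors. In the embryo, Npnt is best known as the ligand of Itga8 with Itgb1 in the outgrowth of the ureteric bud in the kidney, and Fn1 as the fibrous matrix on which early mesenchyme moves.

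Nipbl itself had log2 intensities of 9.54 to 9.97 in Nipbl+/- and of 10.32 to 10.72 in wild type embryos, a ratio of 0.630 with no overlap. Array medians ran from 7.24 to 7.39 and the interquartile range of the arrays from 3.34 to 3.84, lowest on the arrays of wild type replicate 3, Nipbl+/- replicate 2 and Nipbl+/- replicate 9. All 7 markers of limb mesenchyme measured, among them the hindlimb factors Tbx4 and Pitx1, had a mean above 6.31, the 95% point of the 1027 olfactory receptor genes, which stand here for the background of the array. The mean of each of the 10 integrin genes also lay above that value. Replicates are separate embryos, and the labels name no batch. Xist, used below with the Y-linked genes as a measure of embryo sex, lay below 6.31 in 8 of 12 Nipbl+/- and 3 of 12 wild type embryos. The sexes were thus unevenly divided between the genotypes.

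Edil3, a secreted protein first known from endothelium that binds Itgav receptors, had a lower intensity in Nipbl+/- hindlimb buds, where it averaged 6.78 ± 0.273, against 7.46 ± 0.208 in wild type buds (SD, n = 12 each). The log2 difference was -0.68 (standard error 0.0915, 95% interval -0.87 to -0.50), a ratio of 0.622, with an interval of 0.546 to 0.709. The lowest, median and highest Nipbl+/- embryos were at 6.35, 6.80 and 7.19, and those of wild type at 7.03, 7.45 and 7.85. The lowest Nipbl+/- embryos thus lay just above the background value of 6.31. The ratio is one of intensities and need not be that of the transcripts. The ranges overlapped through few embryos, since 10 Nipbl+/- embryos lay below the lowest wild type embryo and 11 wild type embryos lay above the highest Nipbl+/- embryo. The wild type embryo that fell among the mutants, at 7.03, was replicate 3, the array with the narrowest spread of all. The lowest Nipbl+/- embryo, at 6.35, was replicate 2, also among the arrays of narrowest spread. Without the 3 arrays of narrowest spread the log2 difference was -0.648. In whole limb buds, fewer cells that make a transcript and less of it per cell cannot be told apart.

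Itga8, the alpha subunit that binds Npnt, was lower in every Nipbl+/- embryo than in any wild type embryo. The lowest, median and highest Nipbl+/- embryos were at 7.59, 8.06 and 8.26, against 8.32, 8.53 and 8.77 in wild type. Of all genes tested, 0.0401% lay wholly lower and 0.015% wholly higher in Nipbl+/- embryos in this way, and nothing is read from it here, since the same values chose the gene. The means were 8.05 ± 0.199 in Nipbl+/- and 8.52 ± 0.122 in wild type buds (SD, n = 12 each), a log2 difference of -0.47 (standard error 0.0643, 95% interval -0.60 to -0.34) and a ratio of 0.721. The gap between the highest mutant and the lowest wild type embryo was small beside the spread within either genotype, and the lowest wild type embryo was again replicate 3. The lowest Nipbl+/- embryo was again replicate 2. Without the 3 arrays of narrowest spread the log2 difference was -0.421. Itga8 lies on chromosome 2 (12106632 to 12301985, GRCm38.p6) and Edil3 on chromosome 13 (88821472 to 89323225). The 250 bases before a RefSeq start of Itga8 (GRCm38.p6, chr2:12301945-12302194, minus strand) are shown because this is the gene whose genotypes separated. This start lies inside the gene limits given above, since the window reaches 12301945 and the gene runs to 12301985. The motif TATAAA, the motif CCAAT and the motif GGGCGG were searched on both strands and would be in capitals. None of them is in this window.
Itga8: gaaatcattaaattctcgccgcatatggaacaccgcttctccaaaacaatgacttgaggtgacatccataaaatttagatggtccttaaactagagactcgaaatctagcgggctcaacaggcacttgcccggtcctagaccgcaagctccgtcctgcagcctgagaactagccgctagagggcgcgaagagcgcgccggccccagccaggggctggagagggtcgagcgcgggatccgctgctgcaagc

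**Figure D1:**
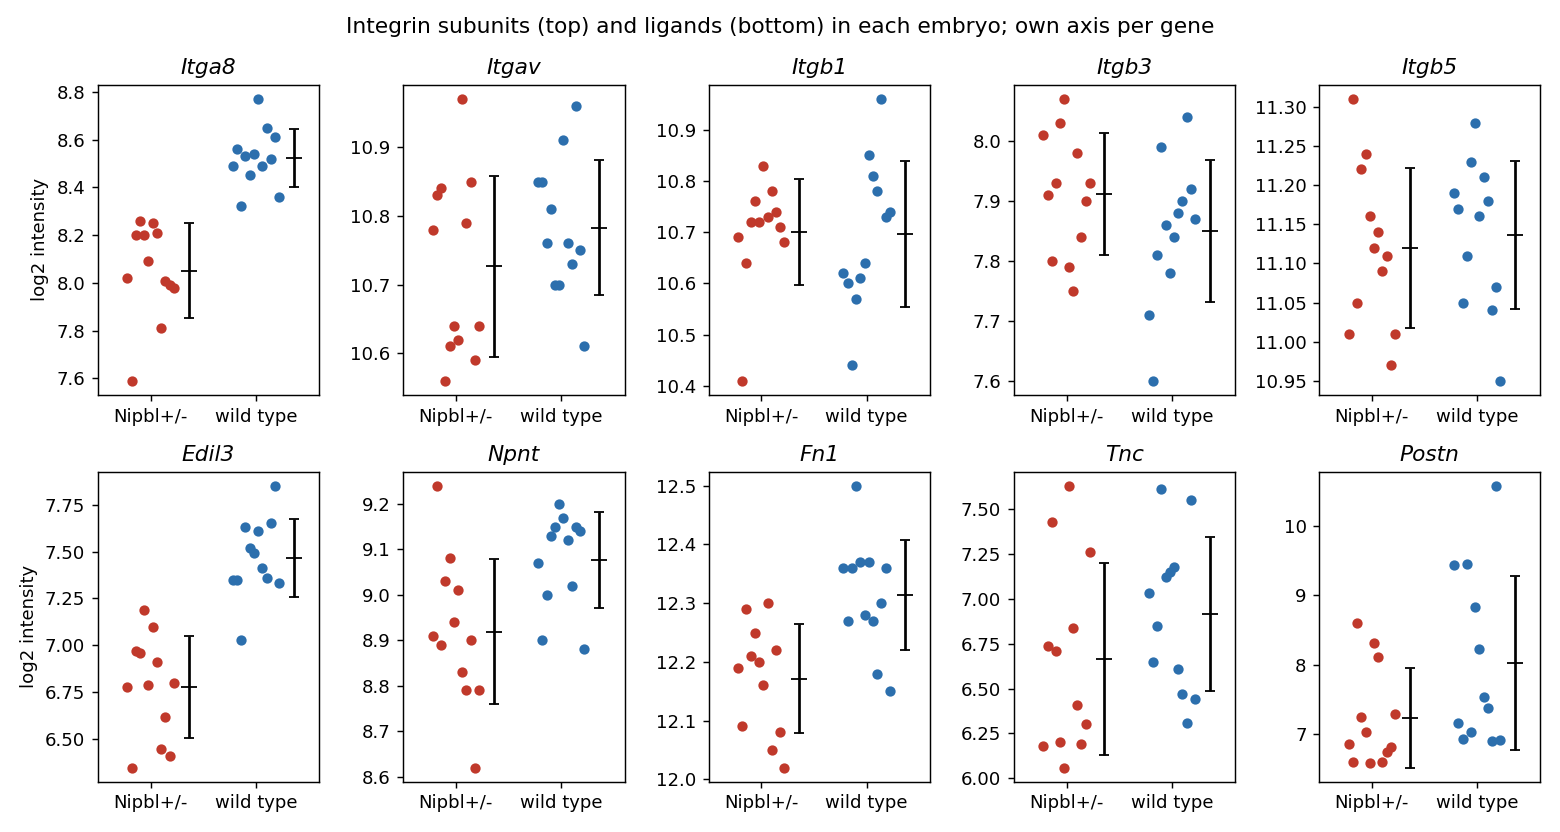
Log2 intensity of the 5 integrin subunits (top row) and the 5 ligands (bottom row) in each Nipbl+/- (red) and wild type (blue) embryo, each gene on its own axis; black bars show mean and SD per genotype (n = 12). Itga8 separates the genotypes, Edil3 nearly does, and the points of Postn spread from 6.58 to 10.58.

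The other 4 integrin subunits did not pass the test, and their genotypes overlapped. Itgb1, the obligate partner of Itga8 and the most widely used beta subunit, averaged 10.70 ± 0.104 in Nipbl+/- and 10.70 ± 0.142 in wild type embryos (SD, n = 12 each). Its ratio of 1.0 had a 95% interval of 0.934 to 1.08 (adjusted p = 0.995 from limma). Embryos of the genotypes were intermixed, at 10.41 to 10.83 in Nipbl+/- and 10.44 to 10.96 in wild type.

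Itgav, the alpha subunit of the receptors for Edil3 and Postn, ran from 10.56 to 10.97 in Nipbl+/- and from 10.61 to 10.96 in wild type embryos. Its ratio was 0.961 (95% interval 0.898 to 1.03, adjusted p = 0.814 from limma). The beta subunits that pair with Itgav were likewise intermixed. Itgb3, which is known from platelets, osteoclasts and growing vessels, lay between 7.75 and 8.07 in Nipbl+/- and between 7.60 and 8.04 in wild type embryos, a ratio of 1.04 (95% interval 0.978 to 1.11, adjusted p = 0.773 from limma). Itgb5, which epithelia and mesenchyme use more broadly, lay between 10.97 and 11.31 in Nipbl+/- and between 10.95 and 11.28 in wild type embryos, a ratio of 0.989 (95% interval 0.932 to 1.05, adjusted p = 0.977 from limma). For these 4 subunits, differences up to the limits of their intervals remain possible.

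The ligands Npnt and Fn1 had slightly lower means in Nipbl+/- embryos, and neither passed the test. Npnt, the ligand of Itga8 with Itgb1, averaged 8.92 ± 0.162 in Nipbl+/- and 9.08 ± 0.105 in wild type embryos (SD, n = 12 each), a log2 difference of -0.16 (standard error 0.0546, 95% interval -0.27 to -0.05, adjusted p = 0.242 from limma). Its lowest, median and highest embryos were at 8.62, 8.90 and 9.24 in Nipbl+/- and at 8.88, 9.12 and 9.20 in wild type. Although 10 of 12 Nipbl+/- embryos lay below the wild type mean, the highest embryo of all was a mutant, replicate 2, whose array was among those of narrowest spread.

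Fn1, or fibronectin, had the smallest SD within a genotype of the 10 genes, at 0.0935. Its lowest, median and highest embryos were at 12.02, 12.19 and 12.30 in Nipbl+/- and at 12.15, 12.33 and 12.50 in wild type. The ranges overlapped, while 12 of 12 Nipbl+/- embryos lay below the wild type mean. The log2 difference was -0.14 (standard error 0.0407, 95% interval -0.23 to -0.06), a ratio of 0.906 (adjusted p = 0.114 from limma). It passed the threshold in 2 of 14 alternative fits, with the variance trended on intensity and made robust (adjusted p = 0.0409) and with a covariate for the spread of the array (adjusted p = 0.0440), and its adjusted p from limma ran from 0.0409 to 0.340 over them.

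Tnc, or tenascin-C, a large matrix protein of condensing and moving mesenchyme, spread widely in both genotypes. Its lowest, median and highest embryos were at 6.06, 6.56 and 7.63 in Nipbl+/- and at 6.31, 6.94 and 7.61 in wild type. In 5 of 12 Nipbl+/- and 0 of 12 wild type embryos Tnc lay below the background value of 6.31. The log2 difference of -0.25 (standard error 0.179, 95% interval -0.62 to 0.11, adjusted p = 0.751 from limma) was well inside that spread. Within a genotype the SD of Tnc was 0.484, and 50 of 19937 genes had a larger one.

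Postn, or periostin, a matrix protein of fibrous tissue, heart valves and bone lining, was the most variable of the 10 genes. Its lowest, median and highest embryos were at 6.58, 6.94 and 8.60 in Nipbl+/- and at 6.90, 7.45 and 10.58 in wild type. Across all 24 embryos the intensity covered a 16.1-fold range, and 7 of 19937 genes had a larger SD within a genotype than its 1.02. High embryos occurred in both genotypes, with Nipbl+/- replicates 3, 7 and 8 at 8.60, 8.31 and 8.11, and wild type replicates 11, 4, 1, 6 and 7 at 10.58, 9.45, 9.43, 8.83 and 8.22. The log2 difference of -0.80 (standard error 0.375, 95% interval -1.57 to -0.03) did not pass the test (adjusted p = 0.506 from limma), at a ratio of 0.574. Left out one at a time, embryos moved this difference between -0.925 (without Nipbl+/- replicate 3) and -0.568 (without wild type replicate 11). With a covariate for embryo sex, taken from Xist and the Y-linked genes, it was -0.54 (adjusted p = 0.815 from limma). Mutants held fewer embryos with a high Xist, with medians of 5.60 in Nipbl+/- and 11.96 in wild type, and 3 of 12 Nipbl+/- embryos above the wild type mean of 9.98. This unevenness bears on all 10 genes. The same covariate gave a log2 difference of -0.711 for Edil3 and of -0.491 for Itga8.

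**Figure D2:**
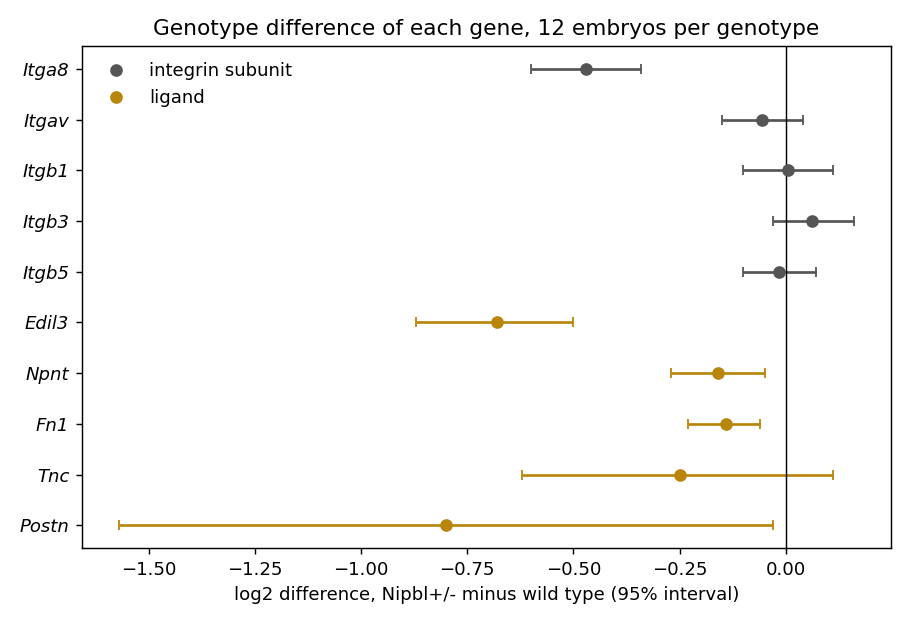
Log2 difference (points) of each of the 10 genes, Nipbl+/- minus wild type, with the 95% interval from limma (bars, 12 embryos per genotype), integrin subunits in grey and ligands in gold. The intervals of Itgav, Itgb1, Itgb3, Itgb5 and Tnc include 0, and that of Postn, from -1.57 to -0.03, is the widest.

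Counted over the 10 genes, 0 were called higher, 2 were called lower at an adjusted p under 0.05 in limma, and 8 did not pass. The called genes were Edil3 and Itga8, which had been chosen for this, and nothing is read from the count. Over all genes tested, 0.527% were called lower and 0.286% higher. Without those, the median log2 difference was -0.205 for the other 4 ligands, of which 4 were below 0, and -0.005 for the other 4 integrin subunits, of which 2 were below 0. Over all genes the median was -0.005, and 10668 of 19937 were below 0.

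Whether partners varied together from embryo to embryo was asked for 8 pairs within each genotype, 16 relations in all, since the spread within a genotype had not been used to choose the genes. Edil3 and Itga8 varied together in Nipbl+/- embryos, with a Pearson r of 0.87 (permutation p = 0.0001, adjusted p = 0.0016) and a Spearman rho of 0.81 (permutation p = 0.00233, adjusted p = 0.0213). The r was 0.87 again without the 2 embryos farthest from the median of Edil3 (permutation p = 0.00085). In wild type embryos r was 0.59 (permutation p = 0.0421, adjusted p = 0.135) and rho 0.50 (permutation p = 0.0994, adjusted p = 0.398), and r was 0.34 without the 2 farthest embryos. The difference between the genotypes in this relation was not tested. Both genes also followed the interquartile range of the array, Edil3 with an r of 0.72 and Itga8 with an r of 0.76 over the genotype-centred values of 24 embryos. With that range taken out, the r of Edil3 with Itga8 in Nipbl+/- embryos was 0.55 (adjusted p = 0.173 by permutation), and the relation was no longer past the threshold.

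The markers of endothelium, of which 6 of 6 had a mean above background, covered nearly the same range in both genotypes, with a mean log2 intensity of 9.53 to 9.91 in Nipbl+/- and of 9.54 to 9.95 in wild type embryos, and 0 of the 6 were called. From embryo to embryo they followed Edil3, with an r of 0.80 in Nipbl+/- and 0.75 in wild type, and Itga8, with an r of 0.90 in Nipbl+/- and 0.70 in wild type. The limb mesenchyme markers did so too, with an r of 0.84 in Nipbl+/- and 0.58 in wild type for Edil3, and of 0.75 in Nipbl+/- and 0.53 in wild type for Itga8. For the proximal limb bud markers Meis1, Meis2 and Shox2 the r was 0.73 in Nipbl+/- and 0.61 in wild type with Edil3, and 0.81 in Nipbl+/- and 0.68 in wild type with Itga8. The ectoderm markers had an r with Edil3 of 0.09 in Nipbl+/- and 0.71 in wild type embryos. The endothelium markers also followed the spread of the array, with an r of 0.87 in Nipbl+/- and 0.86 in wild type embryos. For proximal limb bud that r was 0.80 in Nipbl+/- and 0.65 in wild type, for limb mesenchyme 0.81 in Nipbl+/- and 0.20 in wild type, and for ectoderm -0.10 in Nipbl+/- and 0.52 in wild type. The 3 distal limb bud markers Hoxa13, Hoxd12 and Hoxd13 had lower means in mutants, at 8.49 to 9.43 in Nipbl+/- and 8.95 to 10.06 in wild type embryos. The paper reports lower expression of these same genes in mutant limb buds. As markers they thus cannot tell less distal tissue from lower expression of the genes themselves. The r of these markers with Edil3 was 0.52 in Nipbl+/- and 0.35 in wild type embryos. With Itga8 it was 0.52 in Nipbl+/- and 0.08 in wild type embryos. Hoxd12 (adjusted p = 0.0362) and Hoxd13 (0.00163) were called lower in limma. So was 1 of the 8 ectoderm markers, Krt5 (adjusted p = 0.00171 from limma). Of the 3 Schwann and nerve markers measured, 1 was called higher, Erbb3 (adjusted p = 0.0499 from limma, at the edge of the threshold). Sox10 and Foxd3 of that list were not called. The shares over all genes were 0.527% called lower and 0.286% called higher. No limb mesenchyme or proximal limb bud marker was called. The part of any of these marker lists in the difference of Edil3 or Itga8 was not tested.

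Tnc and Postn varied together in both genotypes. In Nipbl+/- embryos r was 0.82 (permutation p = 0.00258, adjusted p = 0.0138) and rho 0.73 (permutation p = 0.00902, adjusted p = 0.0481). In wild type embryos r was 0.80 (permutation p = 0.00178, adjusted p = 0.0138) and rho 0.80 (permutation p = 0.00266, adjusted p = 0.0213). Without the 2 embryos farthest from the median of Tnc, r was 0.57 in Nipbl+/- embryos (permutation p = 0.083, adjusted p = 0.332) and 0.76 in wild type embryos (permutation p = 0.00864, adjusted p = 0.0691). Neither passed the threshold after adjustment. Leaving out these embryos also narrows the range of Tnc and lowers their number, so it cannot tell how far the relation rested on them. Unlike Edil3 and Itga8, neither gene followed the spread of the array closely, with an r of -0.11 for Tnc and 0.23 for Postn.

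The 250 bases before a RefSeq start of Tnc and of Postn (GRCm38.p6) are shown because these genes varied together. The window of Tnc is chr4:64047016-64047265 on the minus strand and that of Postn is chr3:54360857-54361106 on the plus strand, at the second of the starts listed for Postn. Capitals mark the motif TATAAA, the motif CCAAT or the motif GGGCGG on either strand, and no match overlaps another.
Tnc: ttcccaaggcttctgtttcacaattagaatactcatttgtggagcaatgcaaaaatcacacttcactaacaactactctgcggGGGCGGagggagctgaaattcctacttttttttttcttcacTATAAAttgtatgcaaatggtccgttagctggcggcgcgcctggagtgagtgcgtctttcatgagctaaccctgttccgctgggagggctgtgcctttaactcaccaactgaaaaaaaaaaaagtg
Postn: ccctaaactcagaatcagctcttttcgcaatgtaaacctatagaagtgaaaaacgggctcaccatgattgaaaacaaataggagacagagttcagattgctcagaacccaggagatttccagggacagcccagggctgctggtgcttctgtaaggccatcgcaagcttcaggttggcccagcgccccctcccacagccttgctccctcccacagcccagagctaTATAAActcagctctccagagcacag
In Postn, TATAAA begins 26 bases before this start, and the window of the other listed start has none of these motifs. In Tnc, TATAAA begins 126 and GGGCGG 167 bases before the first listed start, and the same letters lie 205 and 246 bases before the second. The Postn window with a match was the one printed. Of the 32851 windows of this length, 12.4% hold TATAAA, 33.8% CCAAT and 32.7% GGGCGG, so a match is a description of the letters. Windows were listed for 7 of the 10 genes.

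**Figure D3:**
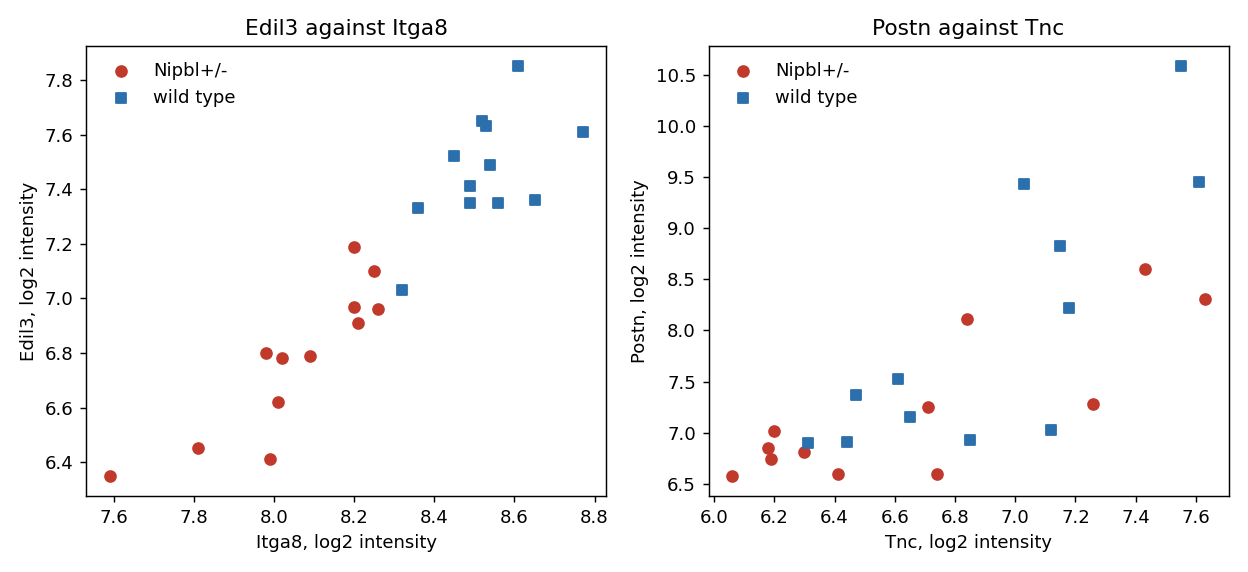
Log2 intensity of Edil3 against Itga8 (left) and of Postn against Tnc (right), 1 point per embryo, Nipbl+/- as red circles and wild type as blue squares. On the left the genotypes form separate clouds that touch at wild type replicate 3. On the right they overlap, with 4 wild type embryos above the highest Nipbl+/- embryo in Postn.

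The remaining 6 pairs had no adjusted p under 0.05 in either genotype. Itga8 and its partner Itgb1 had an r of 0.65 in Nipbl+/- (permutation p = 0.0404, adjusted p = 0.135, rho 0.35 with an adjusted p of 0.443) and of 0.50 in wild type embryos (permutation p = 0.0931, adjusted p = 0.248, rho 0.34 with an adjusted p of 0.443). The value in Nipbl+/- embryos fell to 0.04 without replicate 2, and with array medians set to 0 it was 0.79 (adjusted p = 0.0348 by permutation). Itga8 and its ligand Npnt had an r of -0.11 in Nipbl+/- (adjusted p = 0.897 by permutation) and of 0.43 in wild type embryos (adjusted p = 0.289 by permutation). The value in Nipbl+/- embryos turned to 0.66 without the 2 embryos farthest from the median of Itga8 (permutation p = 0.0334, adjusted p = 0.178) and to 0.64 without replicate 2 (adjusted p = 0.126 by permutation), the embryo with the lowest Itga8 and the highest Npnt. The r of Itgav was -0.46 with Itgb3 and 0.01 with Itgb5 in Nipbl+/- embryos, and 0.04 with Itgb3 and 0.05 with Itgb5 in wild type embryos. With its ligands, Itgav had an r of -0.25 with Edil3 and 0.31 with Fn1 in Nipbl+/- embryos, and of 0.27 with Edil3 and 0.44 with Fn1 in wild type embryos. For the 5 pairs other than Itga8 with Itgb1, rho lay between -0.38 and 0.41, and the permutation p after adjustment was 0.289 to 0.974 for r and 0.443 to 0.991 for rho.

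Over all genes, those whose genotype-centred values were most like Edil3 over 24 embryos were Bmp5 (r 0.87), Polr3gl (0.87), Unc5c (0.86), Man1a (0.86) and Ccdc80 (0.85). Bmp5 is a bone morphogenetic protein and Unc5c a netrin receptor. For Itga8 they were Magi3 (r 0.90), a scaffold of cell junctions, the zinc finger genes Zfp974 (0.86) and Zfp810 (0.85), the kinesin Kif3a (0.85) of cilia, and Upf2 (0.84), which acts in the decay of aberrant transcripts. None of these 10 genes was called between the genotypes, with an adjusted p from limma of 0.204 for Ccdc80 and higher values for the rest. The genes most like Itga8 had an r with the spread of the array of 0.80 to 0.87, and those most like Edil3 of 0.52 to 0.78, so both lists share that feature of the arrays.

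Genes most like Postn were looked up after its spread had been seen, and they were Tbx20 (r 0.92), Hand1 (0.87), Dcn (0.87), Prss35 (0.86) and Tbx5 (0.85). Tbx20, Hand1 and Tbx5 are transcription factors best known from the heart and lateral mesoderm, and Dcn is the proteoglycan decorin. Tbx20 ran from 5.41 to 6.67 in Nipbl+/- and from 5.53 to 8.14 in wild type embryos, with its highest value in the same wild type embryo, replicate 11, as Postn. In most embryos Tbx20 was near or below the background value of 6.31. Hand1 ran from 7.17 to 8.12 in Nipbl+/- and from 7.11 to 8.68 in wild type embryos, again highest in wild type replicate 11. The r of Postn with Tbx20 was 0.70 in Nipbl+/- and 0.98 in wild type embryos, and with Hand1 it was 0.73 in Nipbl+/- and 0.91 in wild type embryos. With the mean of Tbx20 and Hand1 as a covariate, the log2 difference was -0.199 for Postn (adjusted p = 0.864 from limma) and -0.009 for Tnc (adjusted p = 0.998 from limma), while it stayed at -0.629 for Edil3 and -0.456 for Itga8. That covariate was chosen because it followed Postn, and Tnc varied together with Postn. Its effect on Postn and on Tnc is therefore partly fixed by the choice.

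**Figure D4:**
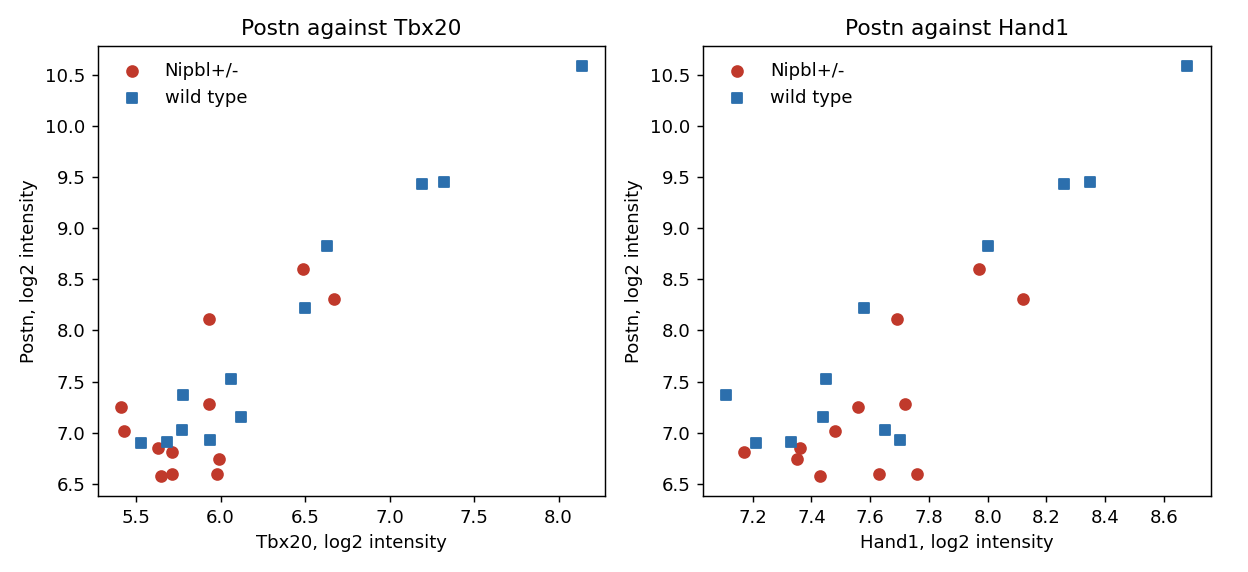
Log2 intensity of Postn against Tbx20 (left) and against Hand1 (right), 1 point per embryo, Nipbl+/- as red circles and wild type as blue squares. Wild type replicate 11, at 10.58 for Postn, is the highest embryo in both plots, and most embryos lie together at the low end.

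Among 23 other integrin genes on the array, 0 were called higher, 1 was called lower and 22 did not pass, with a median log2 difference of -0.016. The list counts Itgbl1, an integrin beta-like gene that is not a receptor subunit. Over all genes, 0.527% were called lower and 0.286% higher. Before adjustment 1 of the 23 was higher and 3 were lower at a limma p under 0.05, beside 4.13% higher and 5.14% lower over all genes. The called gene was Itga4, whose product binds fibronectin and Vcam1 and is known from migrating neural crest, blood cells and the epicardium. Itga4 averaged 7.67 ± 0.144 in Nipbl+/- and 8.06 ± 0.214 in wild type embryos (SD, n = 12 each), and ran from 7.37 to 7.87 in Nipbl+/- and from 7.58 to 8.34 in wild type embryos. Its log2 difference was -0.39 (standard error 0.0702, ratio 0.764, adjusted p = 0.00282 from limma), and 12 of 12 Nipbl+/- embryos lay below the wild type mean. Of the subunits that did not pass, those with the smallest p were Itgb4, the partner of Itga6 in hemidesmosomes (ratio 1.13, adjusted p = 0.187 from limma), Itga9, a receptor for tenascin-C (0.862, adjusted p = 0.217), and Itgb8, which pairs with Itgav (0.888, adjusted p = 0.371). Itga5, the classical fibronectin receptor subunit, stood at 0.946 (95% interval 0.872 to 1.03, adjusted p = 0.755 from limma), and is named here for that role after its value was seen.

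Of 38 other matrix proteins that integrins bind, 0 were called in either direction, and before adjustment 1 gene was higher and 7 were lower at a p under 0.05, around a median log2 difference of -0.021. Over all genes, 4.13% were higher and 5.14% lower at that p. Fbln5, an elastic fibre protein, came nearest, at 8.43 ± 0.208 in Nipbl+/- and 8.68 ± 0.129 in wild type embryos (SD, n = 12 each), a ratio of 0.842 (adjusted p = 0.085 from limma). It passed the threshold in 5 of 14 alternative fits and without Nipbl+/- replicate 4 (adjusted p = 0.0199). For Ccn1, a matricellular signal, the ratio was 0.880 (adjusted p = 0.182 from limma). Dmp1, a protein of mineralising matrix whose means lay below the background value, stood at 0.892 (adjusted p = 0.197). Mfge8, the closest relative of Edil3 and like it a carrier of the integrin motif beside discoidin domains, had a ratio of 0.983 (95% interval 0.930 to 1.04, adjusted p = 0.948 from limma).

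Of 38 proteins of the adhesion complex inside the cell, such as talins, kindlins and paxillin, 0 were called in either direction, and before adjustment 3 were higher and 3 lower at a p under 0.05, beside 4.13% higher and 5.14% lower over all genes. The median log2 difference was -0.003, and the differences ran from -0.09 to 0.14. The smallest p belonged to the partners Git1 (ratio 1.08, adjusted p = 0.174 from limma) and Arhgef7 (1.05, adjusted p = 0.315), which regulate small GTPases at adhesions, and to Cd47 (0.938, adjusted p = 0.404), a membrane protein that associates with Itgav and Itgb3.

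**Figure D5:**
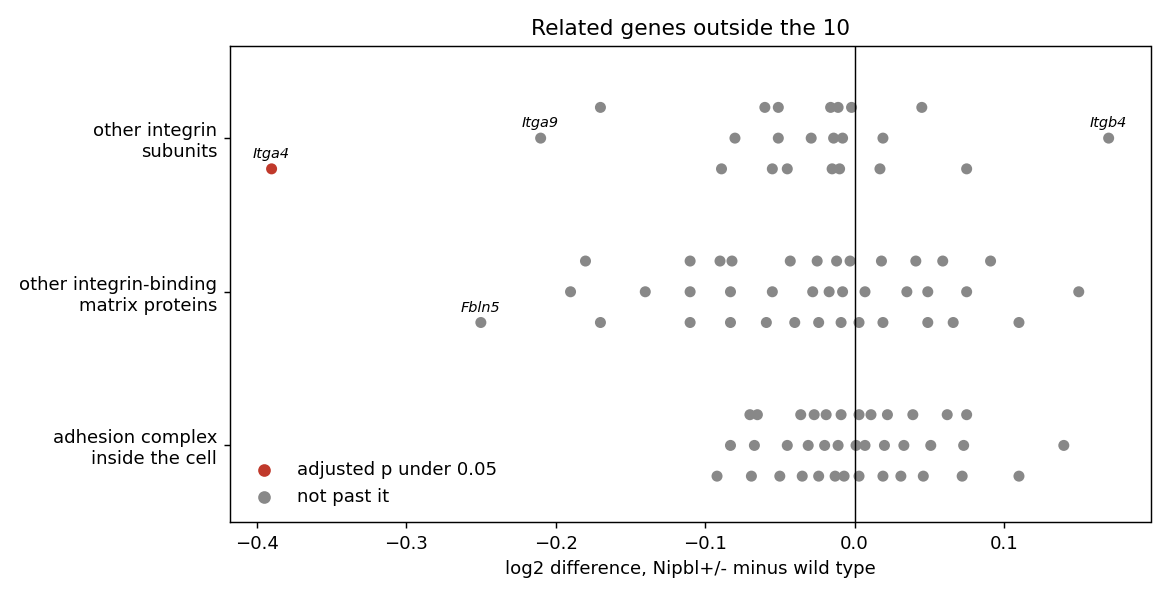
Log2 difference, Nipbl+/- minus wild type, of each measured gene of the 3 related lists. They hold 23 other integrin genes, 38 other matrix proteins and 38 proteins of the adhesion complex. Points are stacked by height only to keep them apart. Itga4, at -0.39, is the only point in red, for an adjusted p under 0.05 from limma.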

How the data were processed

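RNA from both hindlimb buds of 12 Nipbl+/- and 12 wild type embryos at E10.5 was measured on 1 array per embryo, so that the precision is limited by their number. The deposited values are log2 intensities per probe set, which the authors made in GenePattern (Expression File Creator) and, per the labels, by RMA (background correction, quantile normalization and summary), which can hide a shift common to most genes. Of 28159 probe sets, 21640 had 1 gene symbol, 1321 had several and 5198 had none listed, and 21553 of the first matched RefSeq genes of GRCm38.p6. Where a gene had several, the brightest was used, which left 19937 genes.

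The test between genotypes was that of limma 3.58.1 (lmFit and eBayes, R 4.3.3); p-values were adjusted by Benjamini-Hochberg over these genes and 0.05 was the threshold of a call. The study's methods name the Comparative Markers Selection module without its statistic. Correlations were tested with 100000 permutations, two-sided and adjusted over 16 relations. The 10 genes and all lists were chosen with earlier results of these data known. Named from the lists were every called gene, the 3 with the smallest p that were not called, and Mfge8; those most like Edil3 and Itga8 are the 5 with the highest r.

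The fit was tested on simulated data of the same size (19937 genes, 12 embryos each). It recovered 50% of 50 genes changed by a log2 value of 0.2, 90% at 0.3, and 100% at 0.45 and at 0.65, with 8 false calls. The simulated noise was independent between genes, whereas many genes follow the spread of the real arrays, so these rates need not hold for the real data. Alternatives covered the probe set, dim genes, variance model, array weights, scaling, a t-test on linear values, replicate number, embryo sex and each embryo left out; the spread of the array, the 3 arrays of narrowest spread, Tbx20 with Hand1 and gene medians were added after seeing the data. The main fit did not pair embryos by replicate number, since the labels do not say what a shared number marks. The paper describes the embryos as littermates matched for stage, and litters could not be taken into account. Promoter windows are those of RefSeq for GRCm38.p6. Python 3.11.15, scipy 1.17.1 and matplotlib 3.10.9 served for correlations and figures.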

Additional observations from a re-analysis of the deposited data

How the results depend on the processing

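Edil3 kept a log2 difference between -0.711 and -0.629 over 13 alternatives and between -0.724 and -0.645 with each embryo left out in turn, and Itga8 one between -0.491 and -0.421 over 14 alternatives and between -0.492 and -0.431 with each embryo left out. Of the other 8 genes, Fn1 passed in 2 alternative fits and the rest in none of those run. Over all genes, 105 were lower and 57 higher. With array weights 180 were lower and 101 higher, with array medians set to 0 67 were lower and 37 higher, with quantile normalization once more 166 were lower and 142 higher, with a covariate for embryo sex 30 were higher, and with a covariate for the spread of the array, added after seeing the data, 303 were lower and 186 higher. Leaving out each embryo gave 74 to 149 lower and 36 to 72 higher genes, with 36 without wild type replicate 4 or replicate 5 and 37 without replicate 6. With the replicate block 121 were lower and 48 higher. Of 12 same-numbered pairs, 5 had a correlation over 0.1, and 1 mutant embryo matched its own number best. Such correlations also carry effects of the array, such as its spread, so they cannot decide whether the numbers pair the embryos. Filtering out dim genes left no value for Edil3, Tnc and Postn. Correlations that crossed the threshold were Itga8 with Itgb1 in Nipbl+/- embryos (0.79 with array medians set to 0), Tnc with Postn without the 2 farthest embryos (0.57 in Nipbl+/- and 0.76 in wild type) and, with the spread of the array taken out, Edil3 with Itga8 (0.55) and Fn1 with Itgav (0.74), both in Nipbl+/- embryos. The causes were not tested. Itga4 was called in every fit, with a log2 difference from -0.421 to -0.372 over 14 alternatives. Itga9 (adjusted p = 0.0441), Itgb4 (0.0168) and Dmp1 (0.0203) passed in limma only with the covariate for the spread of the array. Groups of 12 embryos were not tested for single outlying embryos.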
